A study of Mus musculus with 6 samples.

Results

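The mitochondrial ribosomal proteins are the nuclear-encoded proteins of the ribosome inside mitochondria, and 77 of the 25509 gene rows in the deposited table carried their symbols (Mrpl or Mrps followed by a digit, pseudogenes left out). Of these, 48 were named for the large subunit (Mrpl) and 29 for the small subunit (Mrps), and the choice used no measured value. All 77 passed the filter on low counts. The mRNA was measured in macrophages of C57BL/6 mice by stranded poly-A RNA sequencing. Tg-ACE mice, which overexpress angiotensin-converting enzyme (ACE), a peptidase that makes angiotensin II, gave 3 libraries, and wild-type (WT) mice gave 3. In both groups thioglycollate, which irritates the peritoneum so that macrophages gather there, had been injected, and cells were taken on day 4, purified on a Percoll gradient and kept after 2 h of adherence. Replicates 2 and 3 of each group carried the experiment code Exp-156b and replicate 1 of each group carried Exp-156, which makes 4 libraries against 2. The labels say neither what the codes stand for nor which promoter drives ACE, and they give no age. They do not say that the replicates were separate mice, so each p-value reflects how far these libraries spread, and that spread may be technical.

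The mitochondrial ribosome translates the few messages of the mitochondrial genome, all of which code for subunits of the respiratory chain and ATP synthase. Every one of its proteins is made in the cytosol from nuclear genes and imported, whereas its ribosomal RNA is transcribed in the organelle, so its assembly needs both genomes. Part of the proteins descend from bacterial ribosomal proteins, and the rest were added in the mitochondrial lineage.

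Library totals ranged from 24294258 to 28120394 expected counts, with 15559 to 15877 genes counted, and 3 counts corresponded to between 0.105 and 0.123 CPM (counts scaled to a common library size). Ace itself stood at 100.4, 25.7 and 31.8 CPM in Tg-ACE libraries 1 to 3, against 16.7, 7.61 and 11.6 CPM in WT libraries 1 to 3. Every Tg-ACE library was above every WT library, with a log2 fold change of 1.95 (SE 0.23, edgeR adjusted p = 0.130). The libraries of the codes also differed in sex-linked RNA, with Xist at 327 to 455 CPM in Exp-156b against 0.408 and 0.526 CPM in Exp-156, and the Y-linked Ddx3y at or below 0.107 CPM in Exp-156b against 47.8 and 51.4 CPM in Exp-156. Macrophage markers were present throughout, with Lyz2, Cd68 and Mertk not called between codes, while Itgam (log2 fold change -1.78), Adgre1 (-1.22) and Csf1r (-0.42) were lower in Exp-156b.

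The 77 genes lay on 17 chromosomes, with 10 on chromosome 11, 8 on chromosome 17 and 7 on chromosome 6. Many stood head to head with a neighbour: 18 of 77 (23.4%) had a protein-coding gene starting within 1000 bases on the opposite strand, against 6.79% of all protein-coding genes in the GENCODE annotation of GRCm38. A mitochondrial partner was among them, since Mrps12 starts 172 bases from Sars2, which encodes the mitochondrial seryl-tRNA synthetase. Mrpl46 and Mrps11 overlap at their 5′ ends on opposite strands, sharing 173 exon bases, so that a large and a small subunit protein leave from the same stretch of chromosome 7.

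Promoter windows of 300 bases (250 before and 50 after the start, RefSeq, GRCm38.p6) were found for 68 of the 77 genes. They were searched on both strands for 4 motifs of factors tied to nuclear genes of mitochondria: those of NRF1, of ETS factors such as GABPA (CCGGAAGT), of YY1 and of THAP11. A gene with several windows counted as holding a motif if any of them did. The ETS letters stood in 17.6% of the 68 genes, against 5.69% of 17492 protein-coding genes. Those of YY1 stood in 7.35% against 1.41%, those of THAP11 in 7.35% against 3.10% and those of NRF1 in 4.41% against 1.47%. At least 1 of the 4 was present in 33.8% of the 68 genes, against 11.0%. By subunit it was 40.5% of 42 large and 23.1% of 26 small subunit genes. The NRF1 letters stood in 3 large and 0 small subunit genes, and those of THAP11 in 4 and 1. Those of ETS factors stood in 8 and 4, and those of YY1 in 2 and 3. The difference between subunits was not tested. The windows below belong to the genes with the highest and the second highest increase between experiment codes (Mrps18b and Mrps10). Others are of the single gene called lower (Mrpl33), the gene with 3 THAP11 matches (Mrpl34) and Mrps11. The window of Mrps11 shares 141 bases with that of Mrpl46. Capitals mark a motif match on either strand, and the windows of Mrps18b and Mrps10 hold none of the 4. The window of Mrps10 begins at 47368947, after the GENCODE start of the gene at 47368887. Bases before that start were not searched.
Mrps18b, chr17:35916391-35916690, minus strand: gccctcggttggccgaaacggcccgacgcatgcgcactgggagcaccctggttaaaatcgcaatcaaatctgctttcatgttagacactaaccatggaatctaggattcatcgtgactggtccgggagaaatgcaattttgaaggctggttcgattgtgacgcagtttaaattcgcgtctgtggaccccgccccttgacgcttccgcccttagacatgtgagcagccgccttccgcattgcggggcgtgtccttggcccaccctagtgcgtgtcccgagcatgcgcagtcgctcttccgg
Mrps10, chr17:47368947-47369246, plus strand: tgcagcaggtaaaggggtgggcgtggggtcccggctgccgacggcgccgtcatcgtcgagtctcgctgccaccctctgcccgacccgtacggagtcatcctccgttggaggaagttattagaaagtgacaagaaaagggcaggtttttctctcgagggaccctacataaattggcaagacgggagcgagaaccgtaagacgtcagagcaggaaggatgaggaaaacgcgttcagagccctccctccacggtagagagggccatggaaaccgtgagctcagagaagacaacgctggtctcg
Mrpl33, chr5:31613701-31614000, plus strand, ETS: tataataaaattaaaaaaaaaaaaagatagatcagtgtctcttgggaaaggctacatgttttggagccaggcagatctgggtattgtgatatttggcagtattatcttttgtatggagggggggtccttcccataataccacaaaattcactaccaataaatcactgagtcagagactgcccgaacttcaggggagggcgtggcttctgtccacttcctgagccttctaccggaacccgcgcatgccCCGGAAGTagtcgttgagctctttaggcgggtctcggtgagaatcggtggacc
Mrpl34, chr8:71464676-71464975, plus strand, THAP11: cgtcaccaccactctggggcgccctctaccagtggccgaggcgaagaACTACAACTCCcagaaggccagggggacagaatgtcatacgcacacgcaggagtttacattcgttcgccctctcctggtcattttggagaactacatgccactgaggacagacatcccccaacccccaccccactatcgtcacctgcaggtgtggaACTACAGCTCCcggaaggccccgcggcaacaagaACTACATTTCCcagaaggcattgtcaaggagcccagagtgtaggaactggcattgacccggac
Mrps11, chr7:78782881-78783180, plus strand, YY1: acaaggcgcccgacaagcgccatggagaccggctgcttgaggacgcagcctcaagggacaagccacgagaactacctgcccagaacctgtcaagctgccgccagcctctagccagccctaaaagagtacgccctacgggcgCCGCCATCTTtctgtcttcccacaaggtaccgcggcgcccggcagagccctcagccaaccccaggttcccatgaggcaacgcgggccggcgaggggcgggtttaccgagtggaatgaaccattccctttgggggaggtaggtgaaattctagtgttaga

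All mitochondrial ribosomal protein genes together took between 0.180% and 0.218% of the counts of a library, and no gene fell below 7.68 CPM or exceeded 68.5 CPM in any library. Divided by exon length, the median level was 11.1 CPM per kb for the large subunit (range 2.07 to 30.7) and 7.85 CPM per kb for the small subunit (1.61 to 55.0). On the same scale the median was 4.32 for all genes tested, 36.9 for nuclear genes of the respiratory chain, 208 for cytosolic ribosomal proteins and 828 for mitochondrially encoded genes, although a poly-A library need not capture the last of these evenly. In the large subunit the highest levels per kb belonged to Mrpl27 (30.7 ± 3.7), whose bacterial relative reaches toward the catalytic centre, Mrpl54 (30.1 ± 3.8), a mitochondria-specific protein, and Mrpl24 (27.3 ± 1.9; CPM per kb, SD over 6 libraries). The lowest were Mrpl47 (2.07 ± 0.22), Mrpl32 (2.70 ± 0.18), which is cut by the m-AAA protease on import, and Mrpl1 (2.76 ± 0.46), the protein of the mobile L1 stalk. In the small subunit Mrps21 stood apart at 55.0 ± 4.4 CPM per kb, followed by Mrps23 (25.2 ± 2.0) and Mrps33 (21.9 ± 1.2), whose ranges over libraries lay far below it. Mrps35 (1.61 ± 0.049), Mrps10 (2.63 ± 0.63) and Mrps22 (2.74 ± 0.39) were lowest, and the last 2 of these did not differ beyond their spread. These are mRNA levels per annotated exon length, and long annotated exons lower the value of a gene. Divided by the longest transcript instead, 2 of the 3 genes stayed at each end of each subunit. Mrpl20 (27.1 by exon union) was then the highest of the large subunit at 55.7 CPM per kb, with Mrpl27 at 40.1, and Mrps36 (35.6) stood above Mrps23, then at rank 6, in the small subunit. At the low end Mrpl32 (4.46) gave its place to Mrpl35 (3.94), and Mrps10, then at rank 24 of 29, gave its place to Mrps5 (4.74).

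**Figure D1:**
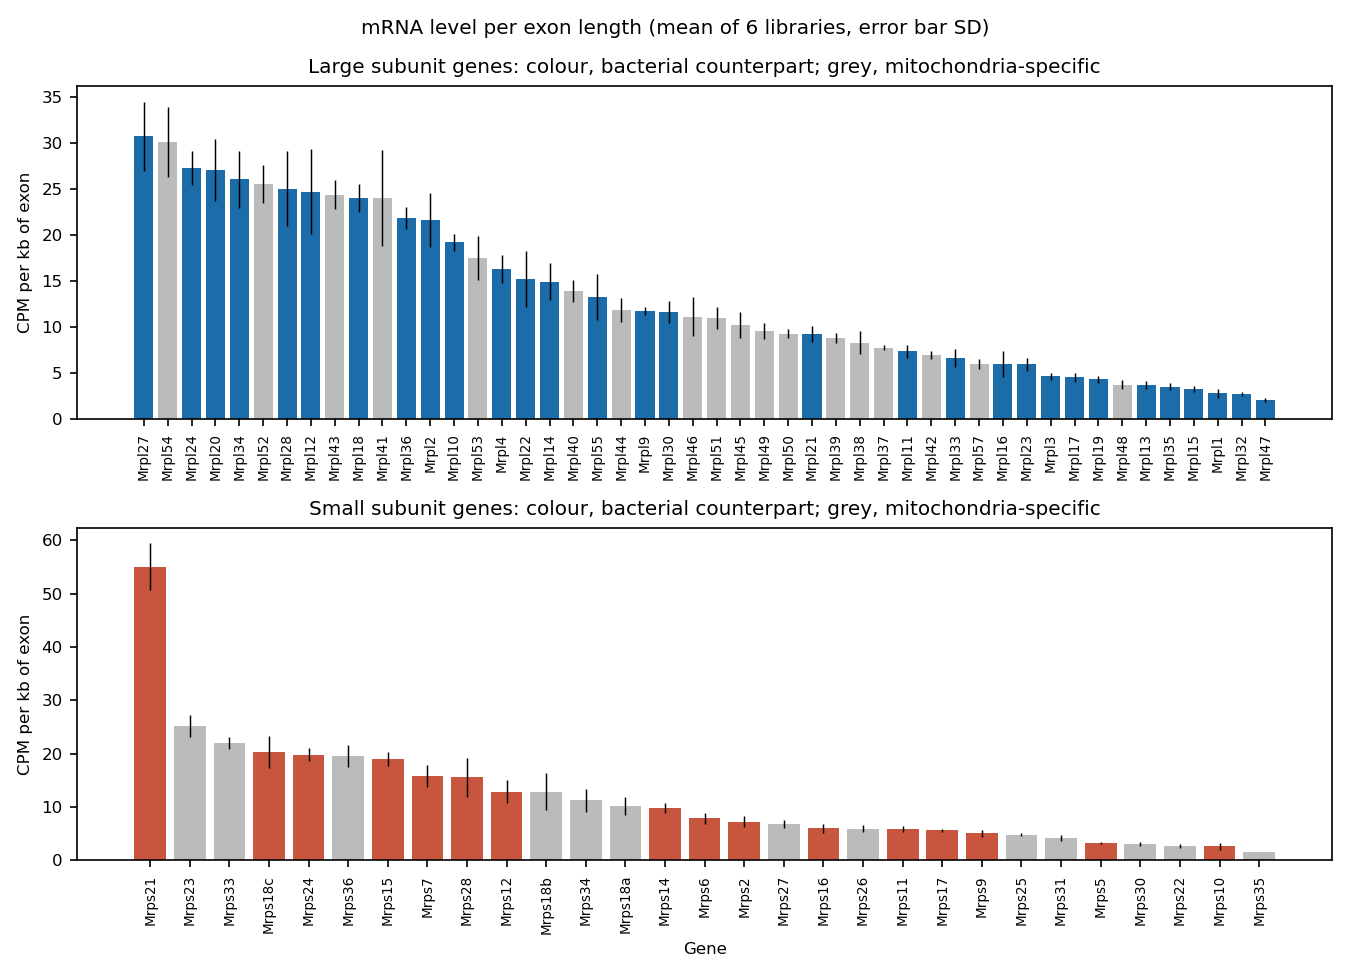
CPM per kb of exon (vertical axis, linear from 0) for each large subunit gene (top) and small subunit gene (bottom), as the mean of 6 libraries with the SD as error bar. Coloured bars are genes whose protein has a bacterial counterpart by its nomenclature name and grey bars are mitochondria-specific ones. Mrps21 at 55.0 CPM per kb is the highest bar of either subunit, and both kinds of protein are found at high and at low levels.

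Genes of proteins with a bacterial counterpart (46) had a median of 10.7 CPM per kb and the 31 mitochondria-specific ones 10.2, so the classes were mixed over the whole range of levels. Among all members the ratio of the highest to the lowest library ranged from 1.08 for Mrps35 to 1.96 for Mrps18b. Over the 4 Exp-156b libraries alone its median was 1.17 for the large and 1.14 for the small subunit. That median was 1.23 for all genes tested and 1.15 for cytosolic ribosomal proteins.

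Tg-ACE was compared with WT to ask whether ACE overexpression goes with a different output of these genes, in an edgeR quasi-likelihood fit that also held the experiment code. A gene was called where its p, adjusted by Benjamini-Hochberg over all 13256 genes tested, was under 0.05. No mitochondrial ribosomal protein gene was called, 0 of 77, where 0.0151% of all genes tested were. At an unadjusted p under 0.05, 4 were higher (2.58% of all genes) and 1 was lower in Tg-ACE (3.91% of all genes), with 6.49% of all genes in either direction. The other settings also called 0 of 77. The shares of all genes they called were 0.143% higher and 0.136% lower with DESeq2, 0.0151% higher and 0.0302% lower with limma-voom, 0.0112% higher and 0.0393% lower with no filter, and 0.0199% lower with a filter of 5 CPM. Leaving out 1 library gave between 0.0147% and 0.0152% lower, and 0.00757% higher without WT replicate 3. The fold changes were small and mostly of the same sign: 60 were above 0 and 17 below, where 48.1% of all genes were above 0. These signs came from the same libraries and are not separate evidence. Cytosolic ribosomal proteins had 64 above and 16 below, and nuclear genes of the respiratory chain 74 above and 8 below. The median log2 fold change was 0.08 for the large subunit and 0.07 for the small subunit, against -0.01 for all genes tested, and single genes ranged from -0.18 to 0.39 with standard errors from 0.06 to 0.15. For the large subunit the median was 0.04 without Tg-ACE replicate 3 or WT replicate 3 and 0.13 without Tg-ACE replicate 1 or WT replicate 1, and for the small subunit it was 0.12 without Tg-ACE replicate 1 or WT replicate 1. With code and genotype fitted, the median log2 CPM per library had a residual SD of 0.076 (large) and 0.029 (small). For the large subunit that spread was about the size of its genotype median, but these are unlike measures. A median of log2 CPM depends on which gene sits in the middle. For the large subunit it was 4.67 and 4.82 in Tg-ACE libraries 2 and 3. The median deviation of its genes from their own means was 0.095 and 0.139 in those libraries. The SDs therefore do not show which subunit varied more. The lowest edgeR adjusted p among the 77 genes was 0.749.

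Mrps12, a protein of the decoding centre whose bacterial relative is where streptomycin resistance arises, had the smallest p. It stood at 14.7, 15.1 and 15.9 CPM in Tg-ACE libraries 1 to 3, against 13.3, 11.0 and 10.6 CPM in WT libraries 1 to 3. The groups did not overlap, and the WT library nearest to the Tg-ACE ones was that of Exp-156. The log2 fold change was 0.39 (SE 0.11, edgeR adjusted p = 0.749). Its head-to-head neighbour Sars2 had a log2 fold change of 0.06 (edgeR adjusted p = 0.947). Mrps6, a protein at the edge of the small subunit in bacteria, stood at 12.1, 13.3 and 14.2 CPM in Tg-ACE, against 10.9, 9.92 and 11.8 CPM in WT. Its groups did not overlap either (log2 fold change 0.28, SE 0.11, edgeR adjusted p = 0.761), and part of its exons is shared on the same strand with Slc5a3. Mrps7, a head protein of the small subunit, stood at 29.8, 37.6 and 37.8 CPM in Tg-ACE, against 27.4, 31.5 and 32.8 CPM in WT, which overlapped (0.19, SE 0.07, edgeR adjusted p = 0.760).

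In the other direction Mrps9, also a head protein, stood at 22.4, 31.3 and 28.7 CPM in Tg-ACE, against 27.7, 32.7 and 32.6 CPM in WT (log2 fold change -0.18, SE 0.07, edgeR adjusted p = 0.761). Within each code the Tg-ACE libraries were below the WT ones, although the groups overlapped across codes. Mrps17 averaged 35.1 ± 1.53 CPM in Tg-ACE and 38.0 ± 0.741 CPM in WT (SD, n = 3 each) without overlap (-0.12, edgeR adjusted p = 0.795). Mrps35 (-0.04) was the next by p and lay within its standard error of 0.09. In all, groups did not overlap for 4 genes higher in Tg-ACE (Mrpl18, Mrpl36, Mrps6 and Mrps12, where 2.26% of all genes were) and for 1 lower (Mrps17, where 2.52% were).

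In the large subunit Mrpl48, a protein of the central protuberance, stood at 27.4, 35.0 and 35.8 CPM in Tg-ACE, against 27.6, 29.4 and 27.6 CPM in WT (log2 fold change 0.20, SE 0.08, edgeR adjusted p = 0.761). Tg-ACE libraries 2 and 3 were above every WT library and Tg-ACE library 1 was level with them. Mrpl28 averaged 37.9 ± 6.53 CPM in Tg-ACE and 31.2 ± 1.67 CPM in WT (0.27, SE 0.12, edgeR adjusted p = 0.771). Mrpl23, which sits where the new chain leaves the ribosome, averaged 30.7 ± 4.18 CPM in Tg-ACE and 27.3 ± 2.38 CPM in WT (0.17, edgeR adjusted p = 0.788; SD, n = 3 each). The lower genes with the smallest p, Mrpl37 (-0.06), Mrpl15 (-0.04) and Mrpl35 (-0.05), had changes smaller than or about equal to their standard errors (0.06, 0.07 and 0.09). The factor-binding stalk showed no called change, with Mrpl10 at -0.02, Mrpl11 at 0.12 and Mrpl12 at 0.13, and neither did Mrpl3 (-0.04), Mrpl45, the protein that holds the ribosome to the inner membrane (0.10), or Mrps36 (0.10), now counted with the 2-oxoglutarate dehydrogenase complex.

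**Figure D2:**
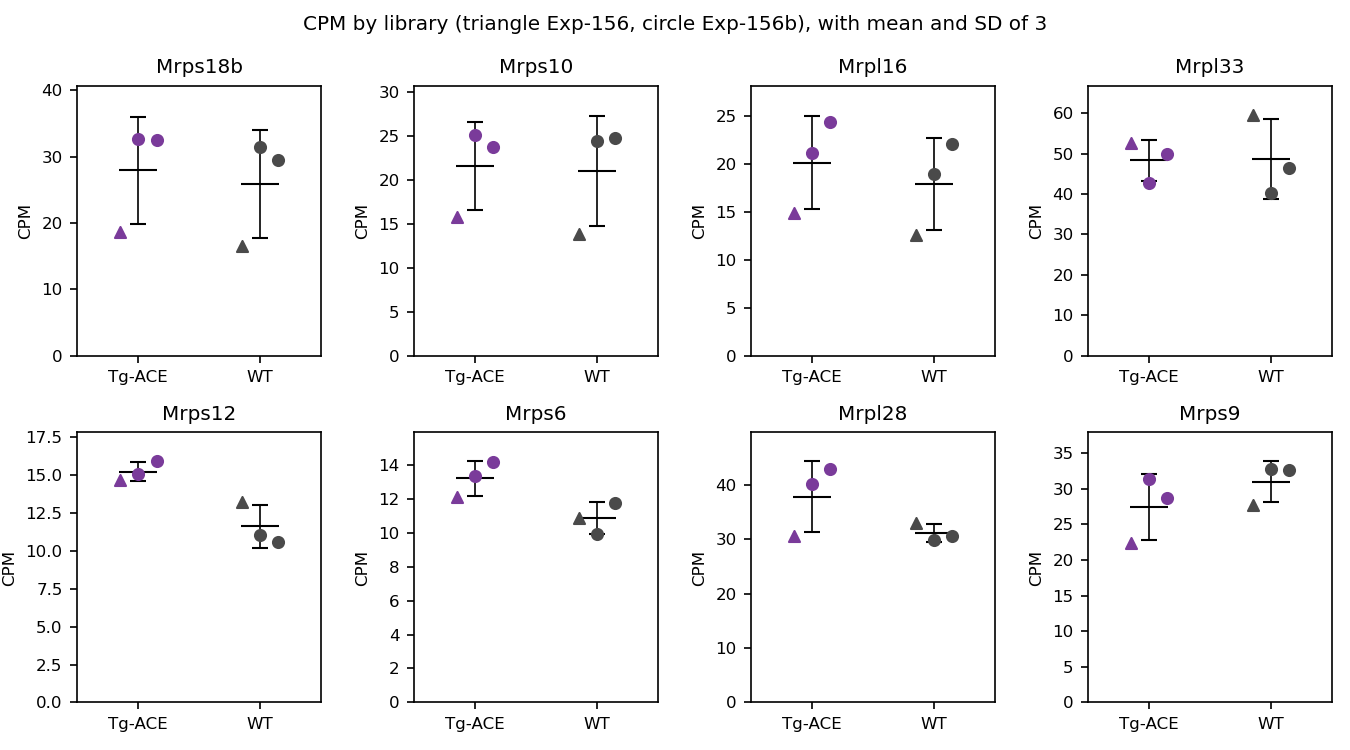
CPM (vertical axes, linear from 0) of 8 genes in each library, Tg-ACE left and WT right, with the mean and SD of 3 libraries as bars. Triangles are Exp-156 and circles Exp-156b. In Mrps18b, Mrps10 and Mrpl16 the triangles of both genotypes lie below all circles, and in Mrpl33 above them, while Mrps12 and Mrps6 are higher in all 3 Tg-ACE libraries than in any WT library.

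The median difference between genotypes was not the same size in the libraries of the codes, although no gene passed the interaction test given below. Within Exp-156b, with 2 libraries a genotype, the median log2 fold change of Tg-ACE over WT was 0.13 for the large and 0.12 for the small subunit, 64 genes were above 0 and 13 below (48.5% of all genes above), and 16 of 77 had an unadjusted p under 0.05, where 10.4% of all genes did. After adjustment 0 of 77 were called there, where 0.0156% of all genes were (edgeR, lowest adjusted p = 0.458). Within Exp-156, with a single library a genotype and no test, the medians were -0.03 and -0.00, with 30 genes above 0 and 47 below (48.5% of all genes above). By library, the summed level was 1172.7 (code Exp-156), 1343.4 and 1410.2 CPM in Tg-ACE and 1222.5 (Exp-156), 1265.2 and 1245.0 CPM in WT for the large subunit. For the small subunit it was 627.1 (Exp-156), 766.5 and 772.3 CPM in Tg-ACE and 634.4 (Exp-156), 720.2 and 710.6 CPM in WT. Tg-ACE libraries 2 and 3 were the highest in both subunits, and Tg-ACE library 1 was the lowest of all 6.

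**Figure D3:**
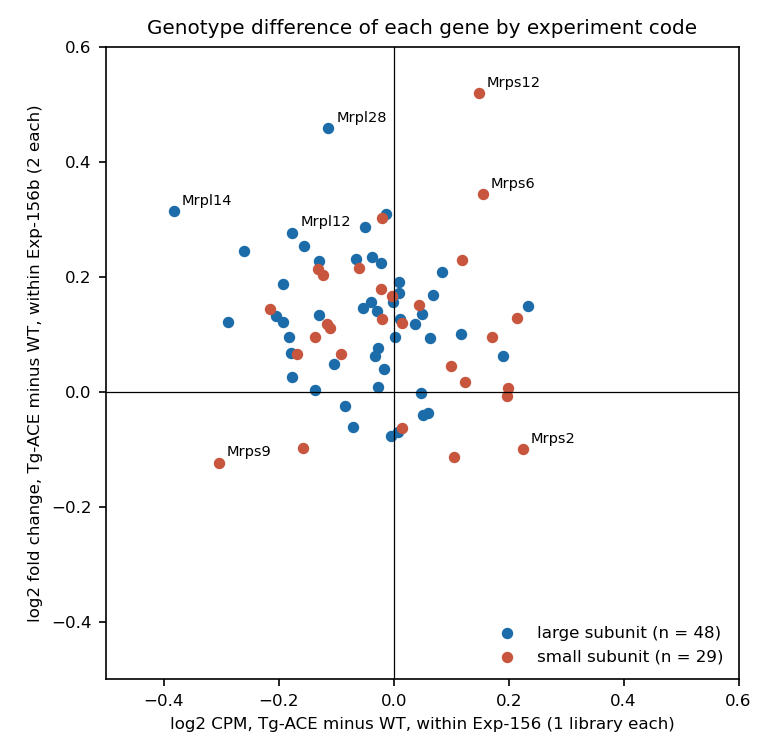
Each point is a gene, with its log2 difference between the Tg-ACE and the WT library of Exp-156 on the horizontal axis and its log2 fold change within Exp-156b on the vertical axis. Most points lie above the horizontal line, at medians of 0.13 and 0.12, and are spread on both sides of the vertical line, at medians of -0.03 and -0.00.

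The interaction of genotype and code, fitted over 13684 genes, tested this difference itself. It was called for 0 of 77 genes and for 0% of all genes. At an unadjusted p under 0.05 it was above 0 for 9 of 77 (4.16% of all genes) and below 0 for 0 of 77 (3.03%), and its median was 0.17 in each subunit, against 0.01 for all genes tested. It was above 0 for 60 genes and below for 17 (50.9% of all genes above). Cytosolic ribosomal proteins had 80 above and 0 below, and nuclear genes of the respiratory chain 78 above and 5 below. DESeq2 called 13 genes of the whole table. Mrpl28 had the smallest p, at 40.1 and 43.0 CPM in the Tg-ACE libraries of Exp-156b and 29.9 and 30.6 CPM in the WT libraries, against 30.5 CPM (Tg-ACE) and 33.1 CPM (WT) in Exp-156. Only the 2 Tg-ACE libraries of Exp-156b stood out, and the interaction was 0.58 (SE 0.13, edgeR adjusted p = 0.690). Mrpl14, which contacts the small subunit and is bound by the assembly factor Malsu1, had the largest value of those named, 0.71 (SE 0.20, edgeR adjusted p = 0.690). It stood at 15.1 and 16.3 CPM in Tg-ACE and 13.3 and 12.0 CPM in WT within Exp-156b, against 12.3 CPM (Tg-ACE) and 16.0 CPM (WT) in Exp-156, so its direction turned between the codes. In the small subunit Mrps21 (0.35, SE 0.13) and Mrps36 (0.34, SE 0.14) had the smallest p (both edgeR adjusted p = 0.690). Mrpl12, the stalk protein that recruits elongation factors and also binds the mitochondrial RNA polymerase, had 0.46 (SE 0.15, edgeR adjusted p = 0.690).

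Between the experiment codes the genes moved more than between genotypes. Of the 77, 33 were called, where 43.2% of all genes tested were, and nearly all in 1 direction. Higher in Exp-156b were 32 (41.6%), 19 of the large and 13 of the small subunit, where 19.8% of all genes were, and lower was Mrpl33 alone, where 23.4% of all genes were. The called increases were between 1.16-fold and 1.79-fold. The median log2 fold change was 0.18 for the large and 0.22 for the small subunit, against -0.01 for all genes tested, and 64 genes were above 0 and 13 below (49.5% of all genes above). All 4 Exp-156b libraries were above both Exp-156 libraries for 43 genes (28.9% of all genes) and below them for 5 (31.1%). The 44 genes not called lay between -0.21 and 0.35. In Tg-ACE libraries alone the medians were 0.27 for the large and 0.30 for the small subunit, and in WT libraries alone 0.11 and 0.13.

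**Figure D4:**
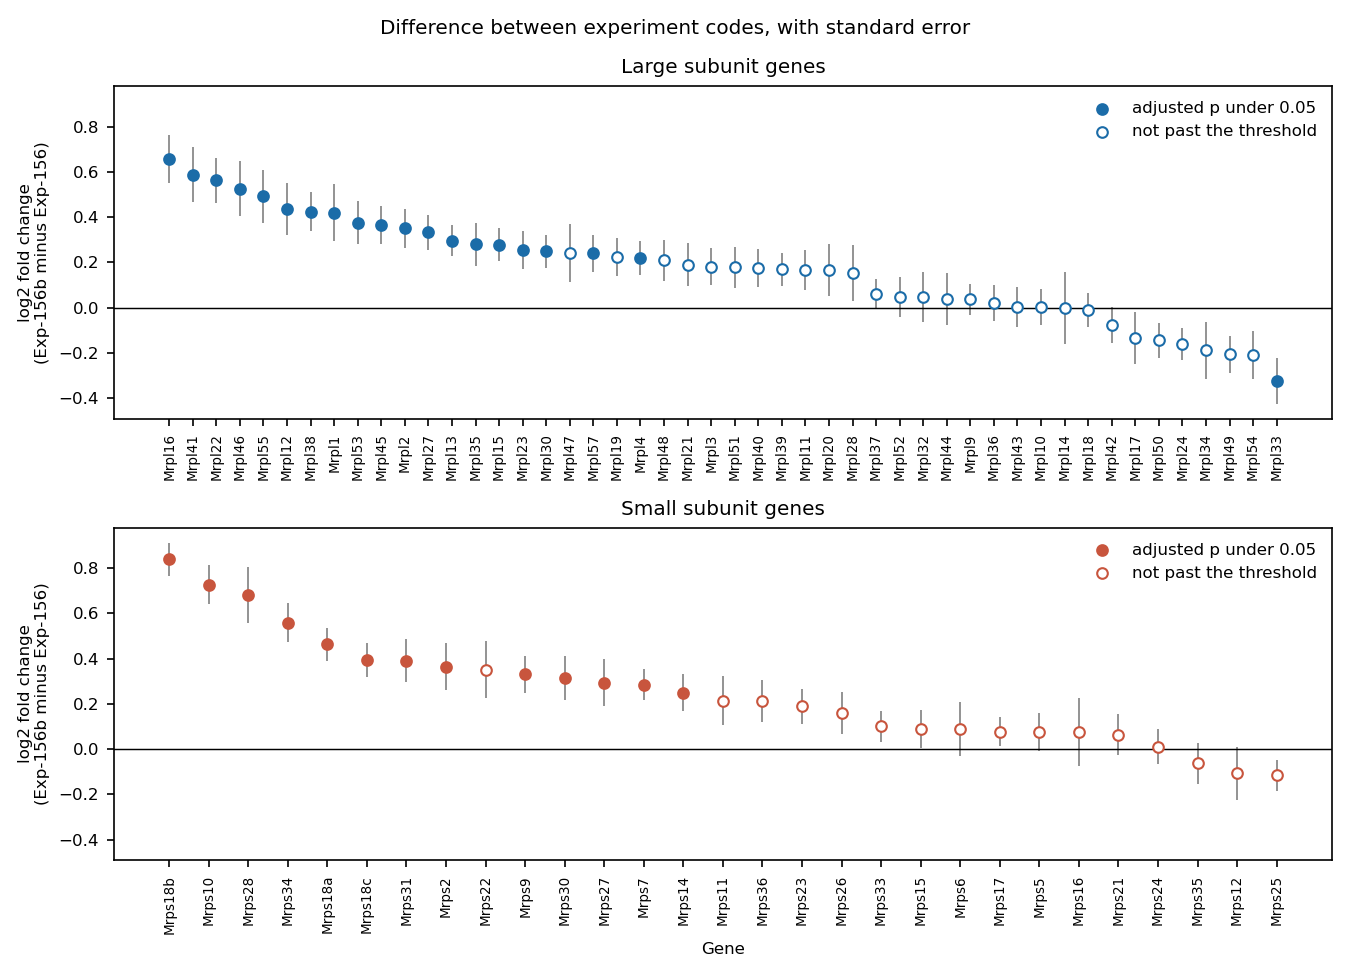
Log2 fold change of Exp-156b over Exp-156 (vertical axis) for each large subunit gene (top) and small subunit gene (bottom), in order of size, with the standard error as bar. Filled points passed the adjusted threshold and open points did not. The filled points run from 0.22 to 0.84 above 0, with Mrpl33 at -0.32 as the single filled point below.

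Mrps18b had the largest change. It stood at 32.6 and 32.6 CPM (Tg-ACE) and 31.5 and 29.5 CPM (WT) in Exp-156b, against 18.7 CPM (Tg-ACE) and 16.6 CPM (WT) in Exp-156. The codes were far apart and the genotypes close within each, with a log2 fold change of 0.84 (SE 0.07, edgeR adjusted p = 0.00014). Its product is one of 3 mitochondrial relatives of bacterial protein S18. The other two rose as well, Mrps18a by 0.46 (SE 0.07, edgeR adjusted p = 0.00185) and Mrps18c by 0.39 (SE 0.08, edgeR adjusted p = 0.00458), although the 3 products sit at different places and that of Mrps18a is found on the large subunit. An annotated antisense gene, Gm16279, covers 638 exon bases of Mrps18b. The gene on its other side, Ppp1r10, which starts 45 bases away and encodes a regulator of protein phosphatase 1, fell by 0.42 on the log2 scale (edgeR adjusted p = 0.00472).

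The window of Mrps10 above also lacks the 4 motifs, but it begins after the GENCODE start of the gene. Mrps10 stood at 25.1 and 23.8 CPM (Tg-ACE) and 24.4 and 24.7 CPM (WT) in Exp-156b, against 15.8 CPM (Tg-ACE) and 13.8 CPM (WT) in Exp-156. The 4 higher libraries differed by little (SD 0.573 CPM), and the log2 fold change was 0.73 (SE 0.09, edgeR adjusted p = 0.000544). Mrps28 stood at 14.6 and 14.7 CPM (Tg-ACE) and 13.7 and 12.8 CPM (WT), against 8.03 CPM (Tg-ACE) and 9.34 CPM (WT) in Exp-156 (0.68, SE 0.12, edgeR adjusted p = 0.00339). Mrps34, a mitochondria-specific protein of the small subunit whose loss in humans causes a disorder of mitochondrial translation, rose 1.47-fold (0.56, SE 0.09, edgeR adjusted p = 0.00164). Its exons overlap Nme3 on the same strand and Mapk8ip3 on the opposite one, and all 6 of its values were not whole, so its level may carry an added error.

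In the large subunit Mrpl16, a neighbour of the aminoacyl-tRNA in bacteria, stood at 21.1 and 24.3 CPM (Tg-ACE) and 18.9 and 22.0 CPM (WT) in Exp-156b, against 14.8 CPM (Tg-ACE) and 12.6 CPM (WT) in Exp-156. The codes did not overlap (log2 fold change 0.66, SE 0.11, edgeR adjusted p = 0.00218). Mrpl41, a mitochondria-specific protein, averaged 24.0 ± 2.56 CPM (SD, n = 4) in Exp-156b and 16.0 CPM over the 2 Exp-156 libraries (0.59, SE 0.12, edgeR adjusted p = 0.00616). Mrpl22, which lines the exit tunnel, averaged 16.8 ± 1.30 CPM in Exp-156b and 11.3 CPM in Exp-156 (0.56, SE 0.10, edgeR adjusted p = 0.00334). Mrpl46, of the central protuberance, followed with 0.53 (SE 0.12, edgeR adjusted p = 0.0105) and Mrpl55 with 0.49 (SE 0.12, edgeR adjusted p = 0.0115). Mrps11, which shares its start region with Mrpl46, had 0.22 and was not called (edgeR adjusted p = 0.143). Mrpl12 (0.44, edgeR adjusted p = 0.0177) and Mrpl45 (0.37, edgeR adjusted p = 0.0097) rose too, whereas the stalk proteins Mrpl10 (0.00) and Mrpl11 (0.17) and the peptidyl transferase centre protein Mrpl3 (0.18) were not called. Mrps30, named for the small subunit but found on the large one, rose by 0.31 (edgeR adjusted p = 0.0344), and counting it and Mrps18a with the large subunit made the called increases 21 and 11.

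The other genes called higher were Mrpl1, Mrpl2, Mrpl4, Mrpl13, Mrpl15, Mrpl23, Mrpl27, Mrpl30, Mrpl35, Mrpl38, Mrpl53 and Mrpl57 of the large subunit and Mrps2, Mrps7, Mrps9, Mrps14, Mrps27 and Mrps31 of the small subunit, all at or below 0.42 on the log2 scale.

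Mrpl33, a small protein with a bacterial counterpart, went the other way. It stood at 42.7 and 49.8 CPM (Tg-ACE) and 40.3 and 46.3 CPM (WT) in Exp-156b, against 52.5 CPM (Tg-ACE) and 59.6 CPM (WT) in Exp-156. The gap between the codes was narrow, and the log2 fold change was -0.32 (SE 0.10, edgeR adjusted p = 0.0357). The call was lost with upper-quartile factors (-0.25, edgeR adjusted p = 0.091), and without Tg-ACE replicate 2 or any 1 of the WT replicates (edgeR adjusted p from 0.0628 to 0.330).

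**Figure D5:**
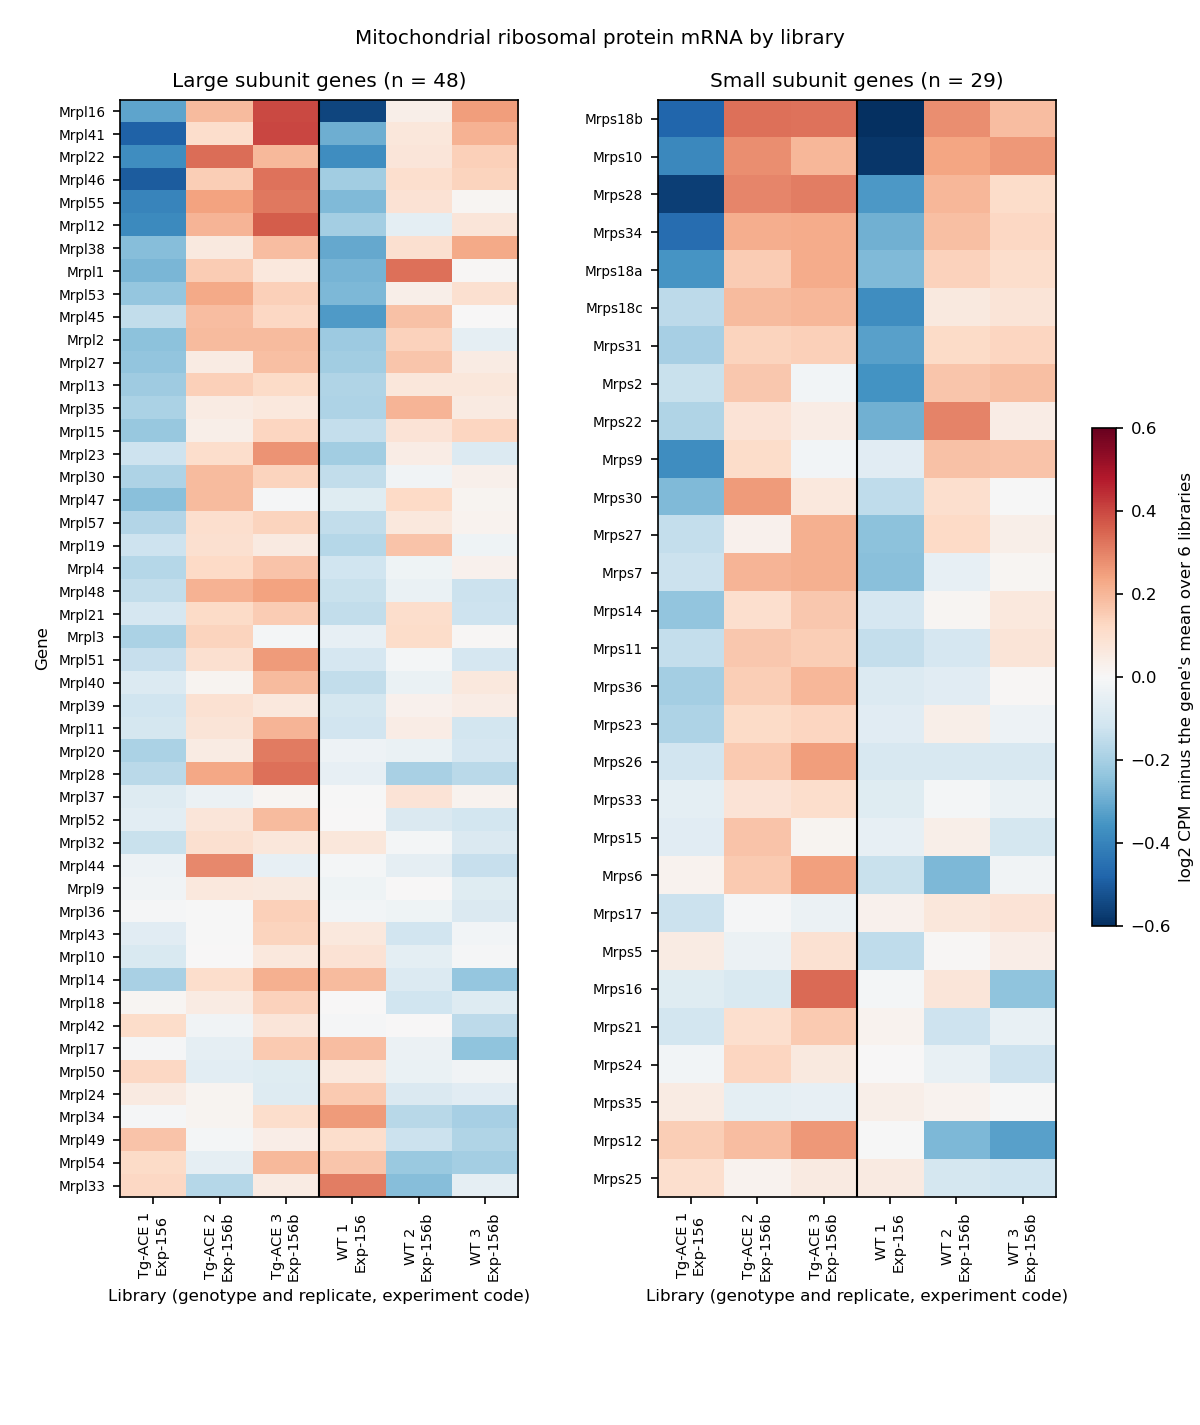
Log2 CPM of each gene minus its mean over the 6 libraries (colour), large subunit left and small subunit right, genes ordered by the difference between codes and libraries ordered with Tg-ACE left of WT. The first column of each genotype, Exp-156, is blue in the upper rows of both panels and pale or red in the lowest rows, with Mrpl33 at the foot of the left panel.

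The number of calls fell whichever library was left out, and only 2 libraries were of Exp-156. Without Tg-ACE replicate 1, 14 of the 77 were called, 13 of them among the 33, with 4 of the large and 8 of the small subunit higher (10.9% of all genes higher). Without WT replicate 1, 23 were called, 19 of them among the 33, with 12 of the large subunit higher (11.1% of all genes higher). With 1 library left in a code, the test assumed that it varied like the others. Of the Exp-156b libraries, leaving out Tg-ACE replicate 2 gave 23 calls (17.3% of all genes higher and 20.3% lower). Leaving out Tg-ACE replicate 3 gave 27 (18% and 20.8% of all genes). For WT replicate 2 it was 25 (18% and 21.9%), and for WT replicate 3 also 25 (16.2% and 19.7%). Mrps18b, Mrps10, Mrps28, Mrps34, Mrps18a, Mrpl16 and Mrpl22 kept their call without any 1 library, while Mrpl41, Mrpl46 and Mrpl55 lost theirs without Tg-ACE replicate 1 (edgeR adjusted p = 0.0857, 0.116 and 0.123).

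Genes that rose were found in both classes of origin, with and without the promoter letters, and their counts stand beside 19.8% of all genes higher and 23.4% lower. Of the genes with a bacterial counterpart 20 of 46 (43.5%) rose (median 0.20) and of the mitochondria-specific ones 12 of 31 (38.7%, median 0.19). Of the 23 genes with at least 1 of the 4 motifs 5 were higher (21.7%, near the share of all genes) and 1 was lower, and of the 45 with a window and no match 21 were higher (46.7%) and 0 lower. The difference between them was not tested. Among the 17 head-to-head pairs with both genes tested, 6 partners were higher and 1 was lower in Exp-156b, beside the same 19.8% and 23.4% of all genes, and in 4 pairs both genes were higher (Mrpl2 with Klc4, Mrpl41 with Pnpla7, Mrps18c with Helq and Mrps34 with Eme2).

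The codes differed in other measures too. Summed markers of T and NK cells were at 1.40 to 3.98 CPM in Exp-156b against 9.33 to 11.4 CPM in Exp-156 (6 of 7 lower), those of eosinophils and mast cells at 12.2 to 25.5 CPM against 54.0 to 108 CPM (3 of the 3 tested lower, Prg2 and Epx not tested), those of neutrophils at 9.46 to 13.0 CPM against 18.2 to 34.2 CPM (S100a9 lower), and those of mesothelial cells and fibroblasts at 123 to 249 CPM against 112 to 121 CPM (Col1a1 and Upk3b higher, Krt19 lower). B cell markers overlapped, at 50.6 to 116 CPM against 88.9 to 114 CPM (0 of 4 called), and the erythroid and platelet markers were at or below 1.61 CPM in every library. Macrophage markers were at 17939 to 21882 CPM in Exp-156b against 21114 to 21285 CPM in Exp-156, with 4 of 7 rows lower, those being Adgre1, Csf1r and both rows of Itgam. Between genotypes 0 markers of any of these lists were called, and their summed levels overlapped for each list. The part of cell composition in the change of the mitochondrial ribosomal protein genes was not tested, and in bulk RNA fewer cells of a type and less RNA per cell cannot be told apart. Sex and experiment code cannot be told apart either.

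Other genes of the same machinery, taken from lists and not for how they moved, were set beside these in the same fit. None of their members was called between genotypes. The smallest unadjusted edgeR p there were 0.013 for the assembly gene Ngrn (log2 fold change -0.27, adjusted p = 0.76), 0.0158 for the rRNA methyltransferase gene Nsun4 (-0.30), 0.0228 for Polg (-0.20) and 0.0372 for the elongation factor gene Tufm (0.17). The counts between codes that follow stand beside 19.8% of all genes higher and 23.4% lower. In this comparison 2 of the 5 other ribosomal proteins of mitochondria were higher in Exp-156b, Gadd45gip1 (log2 fold change 0.42) and Chchd1 (0.35), while Aurkaip1, Ptcd3 and Dap3 were not called. Of 21 assembly genes 7 were higher (33.3%) and 3 lower (14.3%, median 0.13). Genes of pseudouridine synthases went opposite ways, with Trub2 higher (0.47, edgeR adjusted p = 0.00354) and Rpusd4 lower (-0.56, edgeR adjusted p = 0.00105). The RNA helicase genes Ddx28 (0.37) and Dhx30 (0.31), Fastkd2 (0.44), Mettl17 (0.44), Mpv17l2 (0.40) and the GTPase gene Gtpbp10 (0.36) were higher, and the GTPase gene Mtg2 (-0.37) and Rbfa (-0.20) were lower. Of the 17 genes on the translation factor list 3 were higher (17.6%, near the share of all genes) and 1 lower (5.88%, median -0.01). Higher were the elongation factors Tsfm (0.45) and Gfm1 (0.33) and Letm1 (0.51). Letm1 is on that list and in those shares, although it encodes an inner-membrane ion exchanger. Lower was Mrrf, the ribosome recycling factor (-0.46). Of 17 mitochondrial aminoacyl-tRNA synthetase genes 3 were higher (Pars2 0.63, Fars2 0.33 and Iars2 0.31) and Cars2 was lower (-0.51), which is also 17.6% and 5.88%.

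Against the same 19.8% of all genes higher and 23.4% lower, 4 of 16 genes (25%) of mitochondrial transcription, replication and RNA processing were higher, Lrpprc (0.26) and its partner Slirp (0.32), which stabilise mitochondrial mRNA, Trmt10c (0.29) and Supv3l1 (0.31), and 2 (12.5%) were lower, the DNA polymerase subunits Polg (-0.46) and Polg2 (-0.71). Among 11 regulators of nuclear genes of mitochondria the coactivators Ppargc1a (1.08) and Pprc1 (0.63) were higher, and Myc (-1.02) was lower, as were Yy1 (-0.37), Nrf1 (-0.31) and Gabpa (-0.28), whose products bind motifs searched in the windows above. Ppargc1a reached at most 5.07 CPM. Nuclear genes of the respiratory chain had 33 of 82 higher and 2 lower (median 0.21), cytosolic ribosomal proteins 37 of 80 higher and 1 lower (median 0.24), and the mitochondrially encoded genes 6 of 13 higher and 0 lower (median 0.74). The mitochondrial ribosomal proteins, with 32 of 77 higher and a median of 0.19, were not tested against these groups.

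The level of 20 of the 77 genes rested partly on values that were not whole, against 14.7% of all gene rows. Why those values were not whole was not tested. Mrps6, Mrps7, Mrps34, Mrpl12, Mrpl24, Mrpl47 and Mrpl48 were among those with such values in all 6 libraries. Exons of 27 genes overlap another gene on the opposite strand and those of 8 on the same strand, and whether counting used the strand is not stated in the sources used here. The 45 genes with no exon overlap had 21 called higher (46.7%, against 19.8% of all genes) and 0 lower (against 23.4%) between codes (median 0.21) and a median of 0.07 between genotypes.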

How the data were processed

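RNA of 6 macrophage libraries was sequenced as 75-base single reads after stranded poly-A selection, per the labels' protocols. The deposited table holds expected counts per gene made by the authors. The submitters' processing notes list STAR 2.5.0, RSEM 1.2.25, mm10 and GRCh38 without their roles. Whether counting used the strand is not stated in the sources used here. In each library between 11.0% and 11.3% of the expected counts were not whole, and they were rounded before testing. The 92 spike-in rows held 1 count in all and were left out. Tg-NKO is the name in the design text and Tg-ACE that in the sample labels, which were followed.

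Counts were fitted with edgeR 4.0.16 in R 4.3.3 (TMM factors, its filter on low counts, quasi-likelihood test, Benjamini-Hochberg adjustment at 0.05) with experiment code and genotype as terms over 13256 genes. CPM used TMM-scaled library sizes, log2 CPM a prior count of 2, and CPM per kb the union of exons. Standard errors are the fold change divided by the root of the F statistic. Floors of 3 counts cover counting error only. The test was checked on simulated counts. DESeq2 1.42.0 and limma 3.58.1 (voom), other size factors, filters, terms, left-out libraries and a replicate block were alternatives, and those of the interaction fit were added after the data were seen. Same-numbered libraries of the genotypes deviated together (correlations 0.871, 0.533 and 0.667), as replicate 1 alone carried Exp-156, and with the code removed the correlations for replicates 2 and 3 were -0.158 and -0.0894.

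The members, the gene lists and the tests were chosen with earlier results of these data known. Named genes were the 3 with the smallest p per subunit and direction between genotypes, the 5 with the largest called change per subunit and direction between codes, the 3 highest and 3 lowest levels per kb, the 2 smallest interaction p per subunit, and a set of genes with a known role. Markers of other cells were fixed with the design, and lists of cytosolic ribosomal, respiratory chain and mitochondrially encoded genes served as a setting. Promoter motifs were searched as exact letters on both strands. Protein sequences were not used here.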

Additional observations from a re-analysis of the deposited data

Results flagged for a closer look

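In the 4 Exp-156b libraries, WT replicate 2 stood apart from the other 3 for 2 of the 42 named genes. Mrpl35 was at 16.8 CPM in WT replicate 2, and the other Exp-156b libraries were at 15.1 and 15.3 CPM (Tg-ACE) and 15.2 CPM (WT). Mrps22 was at 13.3 CPM in WT replicate 2, and the others were at 11.5 and 11.2 CPM (Tg-ACE) and 11.2 CPM (WT). The gap of that library to its nearest neighbour, divided by the range of the group, was 0.903 for Mrpl35 and 0.854 for Mrps22, above Dixon's critical value for 4 samples. Chance marks about 1 in 20 groups in this way.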

How the results depend on the processing

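No called value changed direction, whereas the uncalled genotype medians fell below 0 in Exp-156 alone. Of the values that answer a comparison, 231 kept their direction, call or size and 33 moved, and of those for single genes 329 did, 24 moved and 8 lost a call. No mitochondrial ribosomal protein gene was called between genotypes under any alternative. The replicate block gave 2 genes in the whole table, medians of 0.08 and 0.07 and no changed call. Over all genes 2 were called between genotypes, 9 with no filter, 37 with DESeq2, 6 with limma-voom and 0 with genotype as the only term, and between 2 and 3 without 1 library. The genotype median was 0.12 for the small subunit in Exp-156b alone, and -0.031 (large) and -0.0036 (small) in Exp-156 alone. Without 1 library it ranged from 0.04 to 0.13 (large) and from 0.057 to 0.12 (small).

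Between codes, upper-quartile factors called 0 genes of the large subunit lower, gave the small subunit a median of 0.29, and turned the split of all genes to 25.3% higher and 19.9% lower, against 19.8% and 23.4%. The medians were 0.27 (large) and 0.30 (small) in Tg-ACE libraries alone, and 0.13 (small) in WT libraries alone. Without 1 library, all genes called ranged from 3553 to 5260 (5732 with all 6), those of the large subunit higher from 4 to 15 and lower from 0 to 2, those of the small subunit higher from 8 to 11, and the medians from 0.11 to 0.27 (large) and from 0.13 to 0.30 (small). For the interaction DESeq2 called 13 genes in all. Without 1 library edgeR called between 0 and 10, the 10 without WT replicate 3, with medians from 0.14 to 0.18 (large) and from 0.12 to 0.15 (small). Where an alternative moved a value, the cause was not tested. Exp-156 held 1 library a genotype, which limits the code and interaction comparisons.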
